A study of Homo sapiens with 6 samples.

Results

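ATF3, CHAC1, SLC7A11 and CEBPB, 4 genes linked to the integrated stress response, were compared between RKO cells expressing non-targeting shRNA (shNT, labelled genotype WT) and RKO cells expressing shRNA against SQLE (shSQLE, labelled SQLE knockdown). The genes were chosen by name for their link to the stress factor ATF4, and they are 4 of the 500 genes in the deposited table. RKO cells are an established line from a human colorectal carcinoma, and SQLE encodes squalene epoxidase, an oxygenase of cholesterol synthesis whose product is (S)-2,3-epoxysqualene. Total RNA was sequenced from 3 libraries of each group, all grown in serum-containing medium, and the labels name no drug for any of them, whereas the study's text places the comparison after 5-fluorouracil. Which SQLE hairpin was used, and whether replicates were separate infections, is not given in the sources used here, so the p-values measure only the spread between these libraries.

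In the integrated stress response, kinases that sense unfolded protein, lack of amino acids, heme deficiency or viral RNA phosphorylate the initiation factor eIF2. General protein synthesis then slows while the mRNA of ATF4 is translated, and ATF4, often as a dimer with a C/EBP protein, activates genes of amino acid supply and of stress adaptation. ATF3 and CEBPB encode basic leucine zipper (bZIP) transcription factors of this network. SLC7A11 encodes xCT, the light chain of the antiporter that brings cystine into the cell in exchange for glutamate, and CHAC1 encodes an enzyme that breaks down glutathione. Cystine, once reduced to cysteine, is the limiting precursor of glutathione, so these proteins act at opposite ends of the glutathione pool. ATF3 and CEBPB also respond to inflammatory and growth signals, and SLC7A11 is also a target of NRF2, so these 3 genes do not report on ATF4 alone.

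ATF4 and C/EBP proteins are known to bind a composite element with the letters TGATGNAA, and CREB and ATF proteins bind the cyclic AMP response element (CRE) TGACGTCA. Promoter windows from RefSeq on GRCh38, 250 bases before to 50 bases after an annotated start, were given for 3 of the 4 genes, with 2 starts each for ATF3 and CEBPB. The sites below are shown because they are the matches to these elements, or to the CRE core TGACG, in those windows. Capitals mark the match, and all are written on the strand of the gene.
ATF3, chr1:212565205-212565234, plus strand: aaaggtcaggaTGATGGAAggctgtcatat
CHAC1, chr15:40953251-40953280, plus strand: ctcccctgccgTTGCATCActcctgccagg
CEBPB, chr20:50190761-50190790, plus strand: gaggggccggcgTGACGcagcggttgctac

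The match of ATF3 began 191 bases before the start at position 212565407 and lay outside the gene as annotated by GENCODE release 29. The match of CHAC1 read TGATGCAA on the opposite strand and began 209 bases before the RefSeq start. The TGACG of CEBPB began 57 bases before its start at position 50190830. The CHAC1 and CEBPB sites fell within a UTR of a GENCODE transcript that begins farther upstream. On both strands, TGATGNAA occurred in 3.62% of 35116 promoter windows, TGACG in 24.6%, and the whole CRE in 1.85% and in 0 windows of these genes. The AP-1 letters TGANTCA, found in 7.71% of all windows, were in 0 windows of these genes. The letters TGACNNNGC of the antioxidant response element, found in 13.3%, occurred once, overlapping the TGACG of CEBPB. These matches describe the reference sequence, and no binding was measured.

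Values are pseudo-counts, which are read counts that the authors moved to a common library size. For each of the 3000 values, from 500 genes and 6 libraries, a whole number of reads was found that this adjustment turns into the deposited value to within 0.01. On these 500 genes the reads summed to between 117410 in shSQLE replicate 3 and 233404 in shNT replicate 3. The depth of the whole libraries is unknown. The table holds genes that the study had already selected as changed on the same libraries, so nearly every gene in it differs between the groups. Groups were compared by limma on log2(pseudo-count + 1), with standard errors written SE, over the 473 genes that reached 1 in 3 or more libraries. A gene was called where the log2 fold change was 1 or more in size and its Benjamini-Hochberg adjusted p-value was under 0.05. Of the 473 genes, 92.6% were called, 71.9% as lower in shSQLE and 20.7% as higher. Against that background the direction of 4 genes of this table is not a result about them, and what follows describes the size, order and spread of their levels. The hairpin's target was measured first, and SQLE went from 6976, 6926 and 6958 pseudo-counts in shNT to 303, 296 and 307 in shSQLE, or 4.35% of the shNT mean. Of the defining markers of intestinal epithelium only KRT20 was among the 500 genes, at 4, 4 and 15 shNT reads and 0 in each shSQLE library, so the cell type could not be checked. From total RNA of a culture, fewer cells that express a gene and less RNA per cell cannot be told apart.

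All 4 genes fell in shSQLE, to between 30% and 45.4% of their shNT means, and were called by limma. For each of them the highest shSQLE library was under the lowest shNT library, as for 69.6% of all genes tested, and in 90.3% the groups were apart in one direction or the other. By the group means the loss was deepest for SLC7A11 and CEBPB, at 30% and 32% of the shNT mean. It was shallower for CHAC1 and ATF3, at 38.7% and 45.4%. The order of CEBPB and CHAC1 was not firm. Without shNT replicate 1 their log2 fold changes were -1.35 and -1.41, and without shSQLE replicate 3 they were -1.45 and -1.47.

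**Figure D1:**
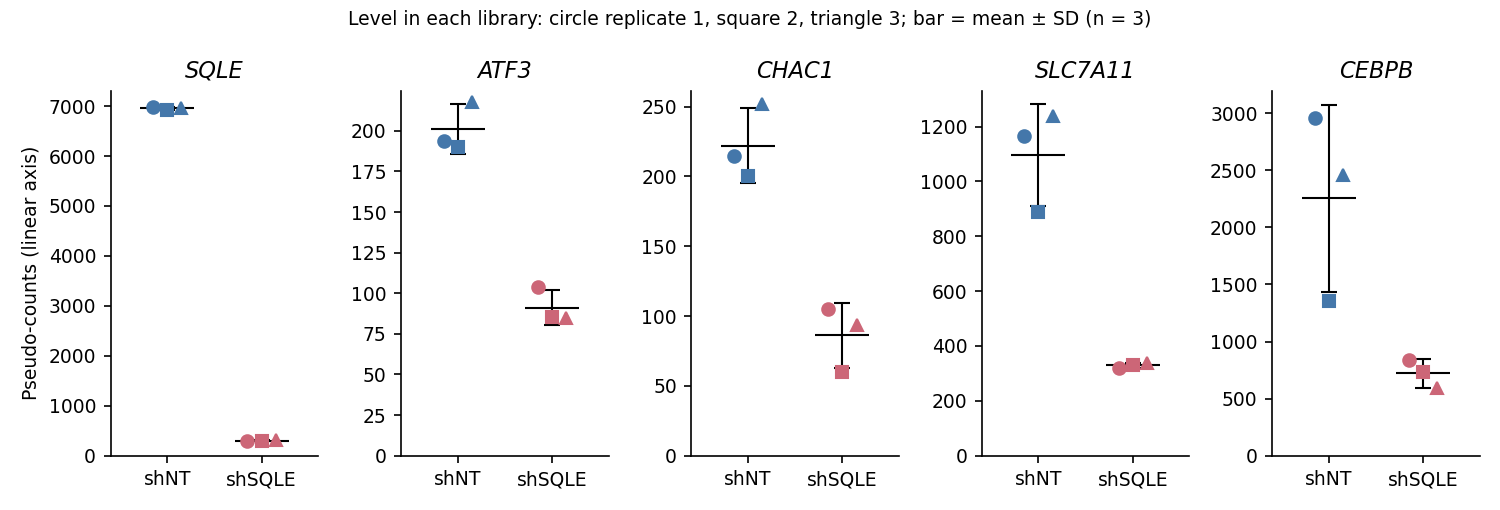
Pseudo-counts (vertical axes, linear, from 0) of SQLE, ATF3, CHAC1, SLC7A11 and CEBPB in the 3 shNT and 3 shSQLE libraries, with symbols for replicates and bars for the mean ± SD. The groups do not overlap in any panel, shNT replicate 2 is the lowest shNT library of each panel, and CEBPB has the widest shNT spread, from 1352 to 2954.

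SLC7A11, the cystine importer, lies on chromosome 4 of GRCh38 from 138164097 to 138242349, minus strand. Its pseudo-counts were 1166, 887 and 1239 in shNT and 318, 331 and 338 in shSQLE. The shNT libraries differed among themselves while the shSQLE libraries were nearly alike, and a wide gap separated the groups, the lowest shNT value being 2.62 times the highest shSQLE value. The mean went from 1097 ± 186 to 329 ± 10.1 (SD, n = 3 each), a 3.33-fold difference. The log2 fold change was -1.72 (SE 0.131, 95% interval -2.02 to -1.42, limma adjusted p = 5.71e-06). This was the largest of the 4 changes and had the smallest standard error. Without shNT replicate 2, the lowest shNT library, it was -1.87 and that of CEBPB was -1.92, so SLC7A11 was then no longer the largest.

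CHAC1, the glutathione-degrading enzyme, lies on chromosome 15 from 40952962 to 40956519, plus strand. Its pseudo-counts were 215, 200 and 252 in shNT and 105, 60.1 and 93.5 in shSQLE. Here the shNT libraries were close together and the shSQLE libraries were spread, with shSQLE replicate 2 the lowest of all. The mean went from 222 ± 27.0 to 86.1 ± 23.2 (SD, n = 3 each), a 2.58-fold difference. The log2 fold change was -1.39 (SE 0.222, 95% interval -1.90 to -0.89, limma adjusted p = 0.000688), and its interval crossed the threshold of -1. Leaving out shSQLE replicate 2 brought the log2 fold change to -1.15 and leaving out shSQLE replicate 1 brought it to -1.55, the range over all alternatives run, and the call held in each. The shSQLE values rested on 115, 66 and 75 reads.

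ATF3, a bZIP factor induced by many stresses, lies on chromosome 1 from 212565334 to 212620777, plus strand. It had 194, 190 and 218 pseudo-counts in shNT and 104, 85.4 and 84.7 in shSQLE. Both groups were tight, and the lowest shNT library was 1.83 times the highest shSQLE library. The mean went from 201 ± 15.4 to 91.2 ± 10.7 (SD, n = 3 each), a 2.20-fold difference. The log2 fold change was -1.13 (SE 0.153, 95% interval -1.48 to -0.78, limma adjusted p = 0.000255), so its interval included values closer to 0 than the threshold of -1.

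CEBPB, which encodes C/EBPβ, a bZIP factor of inflammation, differentiation and stress, lies on chromosome 20 from 50190734 to 50192689, plus strand. Its pseudo-counts were 2954, 1352 and 2459 in shNT and 840, 733 and 591 in shSQLE. The shNT libraries spanned more than a doubling, with replicate 2 far below the others, yet that library was still 1.61 times the highest shSQLE library. The mean went from 2255 ± 820 to 721 ± 125 (SD, n = 3 each), a 3.13-fold difference, and the log2 fold change was -1.58 (SE 0.262, limma adjusted p = 0.00086). It was -1.92 without shNT replicate 2 and -1.35 without shNT replicate 1, the widest such range among the 4 genes, and was called in each. For each of the 4 genes and for SQLE the exact two-sided permutation test gave p = 0.1, the smallest that 3 libraries against 3 allow.

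Relative to exon length, CEBPB was by far the most abundant of the 4 genes. Per kilobase of exon in GENCODE release 29, the shNT level was 1153 ± 419 pseudo-counts (SD, n = 3) for CEBPB. It was 114 ± 19.3 for SLC7A11, 108 ± 13.1 for CHAC1 and 49.7 ± 3.80 for ATF3 (SD, n = 3 each). On this scale SLC7A11 and CHAC1 were within their SDs of each other. In shSQLE the levels per kilobase were 369 ± 63.9 for CEBPB, 41.8 ± 11.3 for CHAC1, 34.1 ± 1.05 for SLC7A11 and 22.6 ± 2.65 for ATF3 (SD, n = 3 each). CHAC1 and SLC7A11 thus changed places in the order, still within the SD of CHAC1. The place of ATF3 depended on the length used, since its exons span 4040 bases in all and its longest transcript 2103. Per kilobase of the longest transcript, an alternative chosen after seeing the data, ATF3 had 95.5 ± 7.31 pseudo-counts in shNT, within the SD of SLC7A11. In shSQLE it then had 43.4 ± 5.08, above SLC7A11 at 34.1 ± 1.05 and within the SD of CHAC1 at 46.6 ± 12.6 (SD, n = 3 each). CEBPB was the highest with either length, and the order of the other 3 genes was not settled, as the isoforms that RKO cells use are not known from the table.

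The genes also differed in how far replicates strayed beyond counting error. The chi-square of the reads per degree of freedom, which is near 1 when libraries of a group differ by counting alone, was 1.21 in shNT and 1.26 in shSQLE for ATF3. The medians of genes of like level, within 2-fold of its mean, were 2.75 and 2.02, and 11 of 47 such genes in shNT and 16 of 54 in shSQLE had less. With 3 libraries a group, a single such value is itself imprecise. For CHAC1 it was 3.33 in shNT and 6.44 in shSQLE, and 50 of 56 genes of like level had less in shSQLE. For SLC7A11 it was 30.8 in shNT against 0.304 in shSQLE, where the medians of genes of like level were 5.75 and 2.95. Of those genes, 26 of 27 in shNT and 3 of 32 in shSQLE had less than SLC7A11. CEBPB reached 282 in shNT and 20 in shSQLE, where the medians of genes of like level were 7.67 and 4.65. In shNT, 34 of the 36 genes of like level were less variable than CEBPB.

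**Figure D2:**
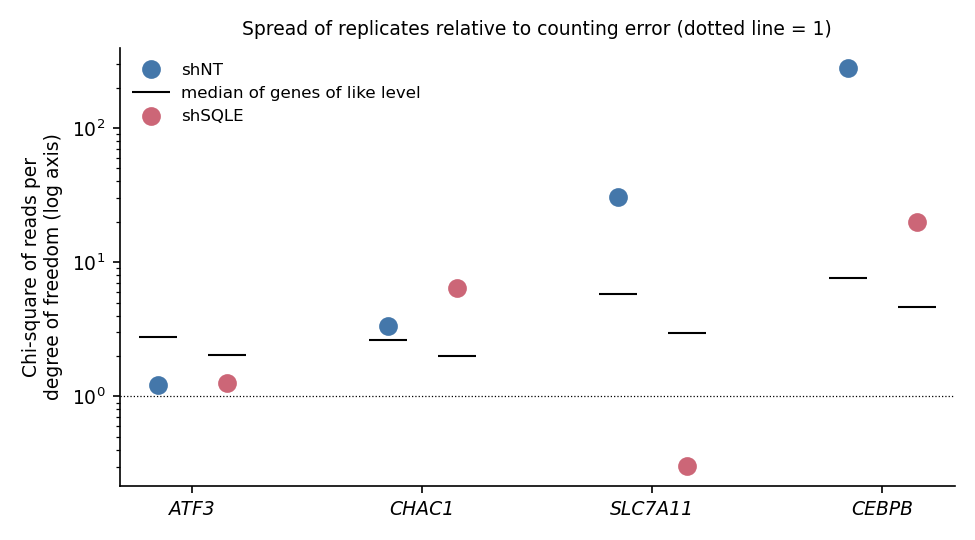
Chi-square of reads per degree of freedom (vertical axis, log scale) among the 3 libraries of each group for ATF3, CHAC1, SLC7A11 and CEBPB, with black bars for the median of genes within 2-fold of the same level. ATF3 lies near 1 in both groups, whereas CEBPB in shNT lies at 282 against a median of 7.67.

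shNT replicate 2 was the lowest shNT library for all 4 genes, whereas it was the lowest for 34.7% of the 473 genes tested, close to an even split of 3 libraries. It stood apart from the other shNT libraries in its reads, with a chi-square per gene of 25.3 and 27.5 against them, where the other replicate pairs had 7.05 to 10.0. On the log2 scale its value minus the mean of the other shNT libraries was -0.99 for CEBPB, -0.44 for SLC7A11, -0.22 for CHAC1 and -0.12 for ATF3, where the median over genes was -0.04. CEBPB had the second lowest such value of 141 genes with a mean of at least 50, and SQLE was level in that library, at -0.01. In shSQLE no library was lowest throughout. Replicate 1 was the highest for ATF3, CHAC1 and CEBPB and the lowest for SLC7A11. Without shNT replicate 2 the log2 fold changes were -1.87 for SLC7A11, -1.92 for CEBPB, -1.46 for CHAC1 and -1.17 for ATF3. Leaving out the lowest shNT library can only enlarge a decrease, so the direction of that shift carries no information, and only its size differed between the genes.

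Whether the genes fell by different amounts was tested on the log2 ratio of each pair within a library, 6 pairs in all. ATF3 fell less than SLC7A11 by the estimate. The log2 ratio of ATF3 to SLC7A11 was -2.58, -2.22 and -2.50 in shNT and -1.61, -1.94 and -1.99 in shSQLE, so every shSQLE library had the higher ratio. The difference was 0.59 (SE 0.161, 95% interval 0.14 to 1.03). The exact two-sided permutation test gave p = 0.1, the smallest it can give here, and 0.6 after adjustment over the 6 pairs. The interval excluded 0 but is not adjusted for the 6 pairs, and the permutation test could not have passed 0.05 whatever the values. The interval included 0 in 3 of 9 alternatives, reaching from -0.07 to 1.10 without shNT replicate 1, from -0.09 to 1.2 without shNT replicate 3 and from -0.28 to 1.45 with the replicate number as a block. For the other 5 pairs the values of the groups overlapped and the exact permutation p-values were 0.2 to 0.7. The interval of the difference was -0.30 to 0.81 for ATF3 and CHAC1 and -0.46 to 1.36 for ATF3 and CEBPB. It was -0.40 to 1.06 for CHAC1 and SLC7A11, -0.92 to 1.31 for CHAC1 and CEBPB, and -0.89 to 0.62 for SLC7A11 and CEBPB. These intervals leave room for unequal changes in either direction, so a like fall of these pairs was not shown. An interval excluded 0 in 1 alternative each for ATF3 and CEBPB, from 0.11 to 1.37 without shNT replicate 2, and for CHAC1 and SLC7A11, from 0.12 to 1.02 without shSQLE replicate 2.

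**Figure D3:**
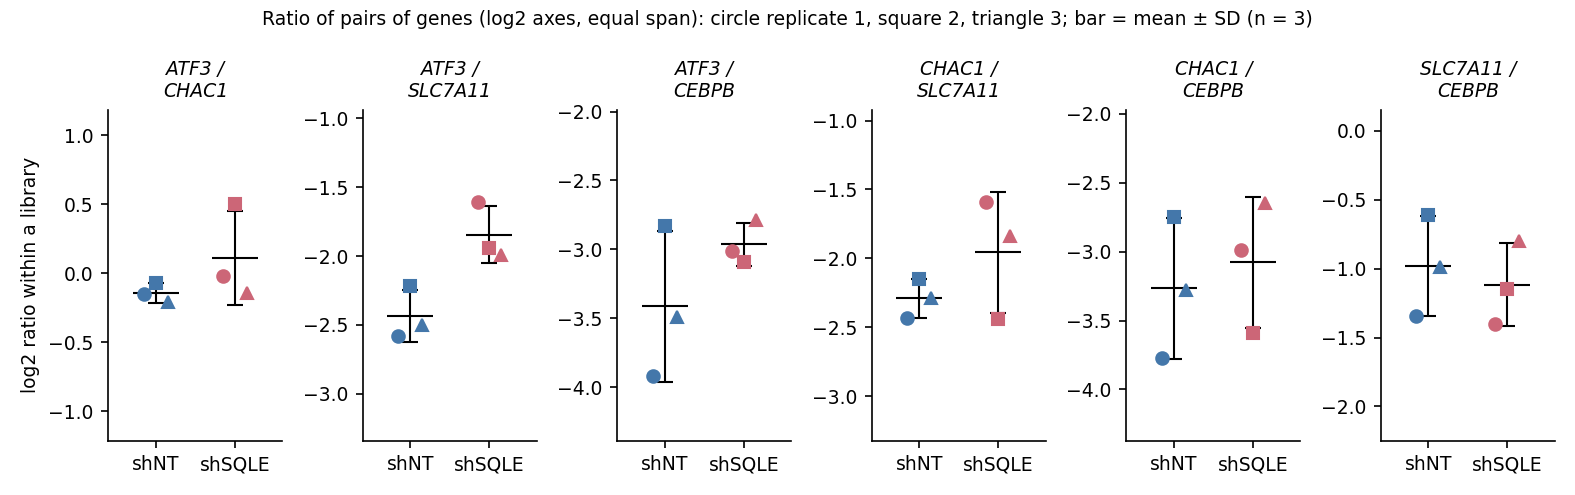
log2 ratio of each pair of the 4 genes within a library (vertical axes of equal span), for the 3 shNT and the 3 shSQLE libraries, with bars for the mean ± SD. The ratio of ATF3 to SLC7A11 is higher in all 3 shSQLE libraries than in any shNT library, and the groups overlap for the other 5 pairs.

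Within the table, SLC7A11, CEBPB and CHAC1 lay between the quartiles of the decreases, and ATF3 was among the smaller ones. The 364 tested genes with a log2 fold change below 0 had a median of -1.67 and quartiles of -2.09 and -1.23. Counted from the largest decrease, SLC7A11 was number 171, CEBPB 198, CHAC1 233 and ATF3 307 of these 364. The median over the 4 genes was -1.49, against -1.38 over all 473 genes.

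**Figure D4:**
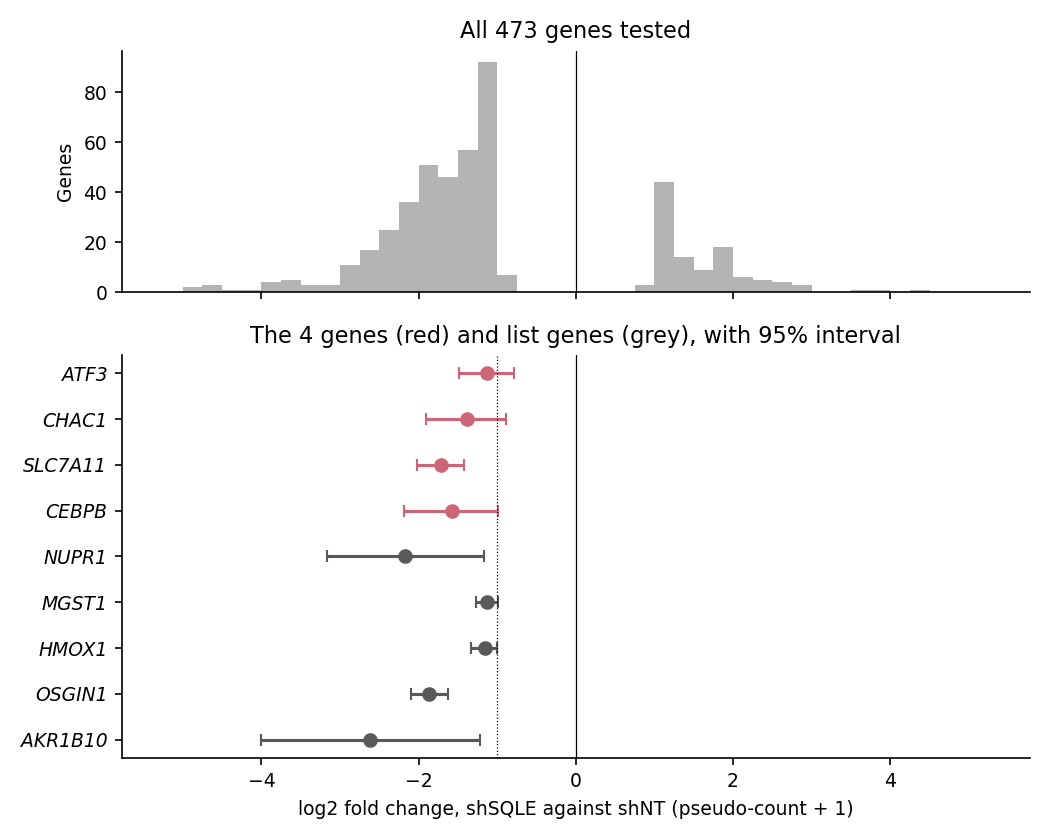
Upper panel, number of genes by log2 fold change of shSQLE against shNT for the 473 genes tested. Lower panel, log2 fold changes with 95% intervals for the 4 genes (red) and for related genes of the lists that are in the table (grey), with a dotted line at the threshold of -1. The empty stretch around 0 in the upper panel reflects that the table holds selected genes, and the interval of SLC7A11, from -2.02 to -1.42, is the only one of the 4 that lies wholly below -1.

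Other genes of the pathway were looked up in a list of 56 genes of ATF4 and the integrated stress response. Of these, 5 were in the table, and 5 were called lower and 0 higher, where 71.9% of all genes tested were called lower. Since 4 of the 5 are the genes described above, the list added only NUPR1, which encodes a small stress-induced chromatin protein. NUPR1 had 30.1, 19.7 and 23.8 pseudo-counts in shNT and 3.56, 3.64 and 7.23 in shSQLE. Its groups did not overlap, but the shSQLE libraries held only 4, 4 and 6 reads. The log2 fold change was -2.17 (SE 0.439, limma adjusted p = 0.00229). ATF4 itself, its partner DDIT3 (CHOP), the pseudokinase TRIB3, the asparagine synthetase ASNS and the serine synthesis enzymes PHGDH and PSAT1 are among the 51 listed genes that are not in the table and were not analysed here. Of 22 genes of the IRE1 and ATF6 arms of the unfolded protein response, which raise chaperones and folding enzymes, 0 were in the table.

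Around cystine and glutathione, 3 of 24 listed genes were in the table, and all 3 fell, against 71.9% of all genes tested. Beside SLC7A11 and CHAC1, described above, the list added only MGST1, a membrane-bound glutathione transferase and peroxidase. MGST1 was abundant, with 10565, 10337 and 10454 pseudo-counts in shNT and 4409, 4918 and 5036 in shSQLE. Its groups were tight and far apart, and the log2 fold change was -1.13 (SE 0.0615, limma adjusted p = 1.03e-06). SLC3A2, the heavy chain that partners xCT, and GCLC, GCLM and GPX4 were not analysed here.

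NRF2 is the other known activator of SLC7A11, and 4 of 28 listed NRF2 targets were in the table. All 4 fell, namely SLC7A11, HMOX1, OSGIN1 and AKR1B10, in a table where 71.9% of the genes tested were called lower, so the count alone sets the list apart from nothing. HMOX1, the heme-degrading oxygenase, had 7738, 6972 and 6662 pseudo-counts in shNT and 3142, 3374 and 3016 in shSQLE. That is 44.6% of the shNT mean, and the log2 fold change was -1.16 (SE 0.0737, limma adjusted p = 2.09e-06). OSGIN1, an oxidative stress-induced growth inhibitor, had 560, 567 and 543 in shNT and 154, 148 and 154 in shSQLE. Its replicates were nearly alike in both groups, and the log2 fold change was -1.87 (SE 0.103, limma adjusted p = 1.06e-06). AKR1B10, an aldo-keto reductase, was counted 20, 12 and 7 times in shNT libraries and 2, 2 and 0 times in shSQLE libraries, so its log2 fold change of -2.62 (SE 0.612) rested on few reads. These counts cannot be set against the rest of the lists, since the unchanged genes are not in the table.

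Of 52 bZIP transcription factors, only ATF3 and CEBPB were in the table. In the annotation that accompanies the genes in the table, both carried the term for positive regulation of transcription in response to endoplasmic reticulum stress, which 0 other genes of the 500 carried. CEBPB and CHAC1 alone carried the term for intrinsic apoptotic signalling in response to endoplasmic reticulum stress. ATF3 shared the term PERK-mediated unfolded protein response with CXCL8, and the term cellular response to amino acid starvation with CDKN1A, and the other 3 genes carried neither. SLC7A11 carried the term response to oxidative stress and none of the terms above. Such terms record earlier knowledge of the proteins and add no measurement.

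Genes with the most similar profile across the 6 libraries were found by the root mean square difference of log2(pseudo-count + 1), each profile centred on its mean, among 300 genes with a mean of at least 10. The nearest profiles to SLC7A11 were those of FOXD1, NRP1 and BIRC3, at 0.140, 0.140 and 0.156, where the median over genes was 0.48. Those nearest to CEBPB were FOXD1, IL1A and PLA2G4C, at 0.219, 0.229 and 0.245, against a median of 0.57. FOXD1, a forkhead factor, had 3417, 2385 and 2910 pseudo-counts in shNT and 1022, 899 and 876 in shSQLE, and was likewise lowest of its shNT libraries in replicate 2. IL1A, a cytokine, rested on 7, 4 and 3 shSQLE reads. Nearest to CHAC1 were PDGFB, GREB1 and HAPLN3, at 0.081, 0.146 and 0.176. PDGFB, a growth factor subunit, had 22.1, 23.9 and 28.4 pseudo-counts in shNT and 11, 5.4 and 9.92 in shSQLE, which rested on only 12, 6 and 8 reads. Nearest to ATF3 were RP2, GJC1 and TP53INP1, at 0.080, 0.082 and 0.087. None of the 4 genes was among the 3 nearest to another. Their closest pairs were ATF3 and CHAC1 at 0.238 and SLC7A11 and CEBPB at 0.281. Among the 300 genes, SLC7A11 ranked 7 in likeness to CEBPB, and ATF3 ranked 14 in likeness to CHAC1. In the other direction, CEBPB ranked 39 for SLC7A11 and CHAC1 ranked 60 for ATF3. The measure mostly reflects the size of the difference between groups and has no test.

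Reads that other genes share with these could not be counted from the table, and only the shared sequence was measured. Of the 50-mers of the longest transcript, 0% of ATF3 and of CHAC1, 0.105% of CEBPB and 1.21% of SLC7A11 occurred in a gene at another position. SLC7A11-AS1 overlaps 865 exon bases of SLC7A11 (8.97%) and CEBPB-AS1 overlaps 231 of CEBPB (11.8%), each on the opposite strand. Whether the counting used strand is not given in the sources used here, so reads of these antisense genes cannot be told from those of SLC7A11 and CEBPB within the overlaps.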

How the data were processed

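RNA-sequencing of RKO cells, 3 shNT and 3 shSQLE libraries grouped by their labels, was represented by a single table of 500 genes, in which the authors gave a normalized signal (pseudo-counts) per gene and library. The table's columns of log2 fold change, p-value and adjusted p-value were not used. The submitters' processing notes name Bowtie 0.12.2 and the mouse build mm8, while the gene names are human. Counter, annotation and normalization are not given in the sources used here.

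Whole reads, relative library sizes (0.797 to 1.13) and a dispersion of 0.00485 were fitted so that quantile adjustment returned each deposited value. This step and the limma fit were checked on simulated data. limma 3.58.1 (R 4.3.3) with a mean-variance trend tested 473 genes on log2(signal + 1), a pseudocount of 1, with Benjamini-Hochberg adjustment over these. Because the genes had been selected on these libraries, adjusted p-values are not genome-wide.

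The 4 genes and the lists were chosen with earlier results of these data known. Named are SQLE, the 4 genes, list genes in the table and the 3 most similar profiles per gene. CYR61 is the older symbol of CCN1. One of the lists is not reported here. Pair intervals used the pooled SD with 4 degrees of freedom. Sequences came from RefSeq (GRCh38), positions from GENCODE 29. The authors' build may differ. Scripts ran in Python 3.11.15 with SciPy 1.17.1, pandas 2.3.3, NumPy 2.4.6 and Matplotlib 3.10.9. Alternatives covered the pseudocount, filter, thresholds, trend, replicate block, whole reads and each library left out.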

Additional observations from a re-analysis of the deposited data

How the results depend on the processing

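SQLE, ATF3, CHAC1, SLC7A11 and CEBPB kept their direction and their call under each of the 13 alternatives run for them, and 4 of the 4 genes were called lower under all 15 alternatives run for that count. Over these alternatives the log2 fold change lay between -4.53 and -4.50 for SQLE, -1.23 and -1.07 for ATF3, -1.55 and -1.15 for CHAC1, -1.87 and -1.62 for SLC7A11, and -1.92 and -1.35 for CEBPB. The highest adjusted p-values by limma were 0.00262 for ATF3, 0.00527 for CHAC1, 0.00152 for SLC7A11 and 0.00836 for CEBPB. Over all genes, 340 were lower and 98 higher. Requiring at least 10 in every library gave 137 and 47 because only 193 genes were tested, and an adjusted p-value under 0.01 gave 203 and 52. A pseudocount of 5 gave 58 higher, and the cause was not tested. Without 1 library each, 232 to 295 genes were lower and 71 to 80 higher.

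The groups share replicate numbers, and the deviations of same-numbered libraries had low correlations across genes of 0.0806, 0.0416 and 0.0919. For libraries of unlike number the correlations ran from -0.108 to 0.0391. No cut-off was set for these values, so whether the numbers mark pairs was not settled. With the replicate block the log2 fold changes were -1.13 for ATF3, -1.39 for CHAC1, -1.72 for SLC7A11 and -1.58 for CEBPB, and no call changed. Each of these libraries correlated best with its own number.

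The difference between CHAC1 and CEBPB, 0.19, turned to -0.06 without shNT replicate 1 and to -0.02 without shSQLE replicate 3, within a range of -0.06 to 0.45. That between SLC7A11 and CEBPB, -0.14, became 0.05 without shNT replicate 2 and 0.00 without shSQLE replicate 1, within -0.32 to 0.05. The difference between ATF3 and SLC7A11 stayed between 0.47 and 0.69, and its interval included 0 in 3 of 9 alternatives. Total depth is unknown, so floors and shares of a library could not be given.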

Other observations

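ATF3 is also an immediate early gene, a class that growth factors and stress switch on within minutes. Of 35 listed immediate early genes, 4 were in the table and all 4 fell (ATF3, CYR61, BTG2 and PLK2), where 71.9% of the 473 genes tested were called lower, so the count is not a result about the list. CYR61, a matricellular protein, had 7297, 6957 and 7215 pseudo-counts in shNT and 3657, 3561 and 3416 in shSQLE, or -1.01 on the log2 scale (SE 0.0548, limma adjusted p = 1.03e-06). BTG2, an antiproliferative gene that p53 also activates, had 1970, 2171 and 1993 in shNT and 873, 874 and 914 in shSQLE, or -1.2 on the log2 scale (SE 0.0742, limma adjusted p = 1.96e-06). PLK2, a polo-like kinase, was counted 58, 53 and 81 times in shNT libraries and 16, 15 and 12 times in shSQLE libraries, or -2.03 on the log2 scale (SE 0.26, limma adjusted p = 0.000181). The median of the 4 was -1.17, against -1.38 over all 473 genes and -1.67 over the 364 of them with a decrease.

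Among markers of other cell types, ITGAM of leukocytes was at 3, 7 and 11 shNT reads and 0, 2 and 2 shSQLE reads, and VWF of endothelium at 8, 13 and 15 shNT reads and 4, 0 and 0 shSQLE reads. The other listed markers of leukocytes and endothelium and the 8 of fibroblasts were not in the table. The part of these few reads in the results was not tested.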
